A study of Mus musculus with 6 samples.

Results

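The 35 genes described here are markers of leukocytes that enter the brain from the blood and of the macrophages that live at its borders. They were taken by symbol from the count table of 53746 genes, and all 35 symbols were found there. They were sorted by the cell type each is commonly used to mark into 12 T cell genes, 5 natural killer (NK) and cytotoxic genes, 3 B cell genes, 5 monocyte and dendritic cell genes, 3 neutrophil genes and 7 border macrophage genes. The question they address is whether transcripts of blood-derived cells were present in cerebella whose Purkinje cells carry active STING, and whether their level differed from that in control cerebella.

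In the steady state the brain parenchyma holds microglia as its resident immune cells and few lymphocytes, monocytes or neutrophils. Border macrophages occupy the meninges, the spaces around blood vessels and the choroid plexus, and they carry scavenger and lectin receptors that set them apart from microglia. T cells are recognized by the CD3 chains and the T cell receptor, NK and cytotoxic cells by granzymes and perforin, B cells by the CD79 chains and CD20, recruited monocytes by Ccr2 and Ly6C, and neutrophils by the S100a8 and S100a9 proteins and the G-CSF receptor.

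Whole cerebella of 3 N153SLSL/LSL mice (control) and of 3 N153SLSL/LSLPcp2-cre mice (Pcp2-cre) were sequenced, all at 2 months of age. Both genotypes carry, on both copies of *Sting1*, a mutant allele that is silenced by a Lox-STOP-Lox cassette, and the Pcp2-cre mice also carry a transgene with Cre under the Pcp2 promoter, which acts in Purkinje cells. The control mice carry no Cre, so a contribution of the transgene itself cannot be told apart from that of the mutant allele. Mice 1 and 2 of each genotype were male and mouse 3 was female. Per the methods of the study, the mice were perfused with ice-cold PBS before the cerebella were taken.

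Each library gave between 6733178 and 10178218 counts. A floor of 3 counts, the upper limit that a count of 0 allows, stood for 0.295 to 0.446 CPM (counts scaled by the library total) depending on the library, and it covers counting error only. A gene is called above the floor in a mouse with more than 3 counts. Control mice 1 and 2 stood apart from the other 4 libraries in choroid plexus transcripts. The 8 markers of that tissue summed to 792 and 1228 CPM in them and to between 24.3 and 86.9 CPM elsewhere. Results for *Csf3r*, *Ly9*, *Flt3*, *Trbc2*, *S100a9* and the tested border macrophage markers are therefore also given without them. That leaves control mouse 3, a female, as the only control, so only the effect sizes are given. Choroid plexus tissue holds border macrophages of its own, and its part in the results was not tested beyond those fits.

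Most of these markers were barely detected in either genotype. Of the 35 genes, 17 never rose above the floor in any of the 6 mice, and 4 of these, *Cd3g*, *Trbc1*, *Nkg7* and *Gzmb*, had 0 counts everywhere. The same held for 59.8% of all genes in the table and 29.1% of its protein-coding genes, beside 48.6% of the markers. Above the floor in every control mouse were 6 markers, and in every Pcp2-cre mouse 10. The plot of counts per mouse shows the T cell, NK and B cell genes crowded at the left edge, with *Ly9* as the one lymphoid gene above 10 counts.

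**Figure D1:**
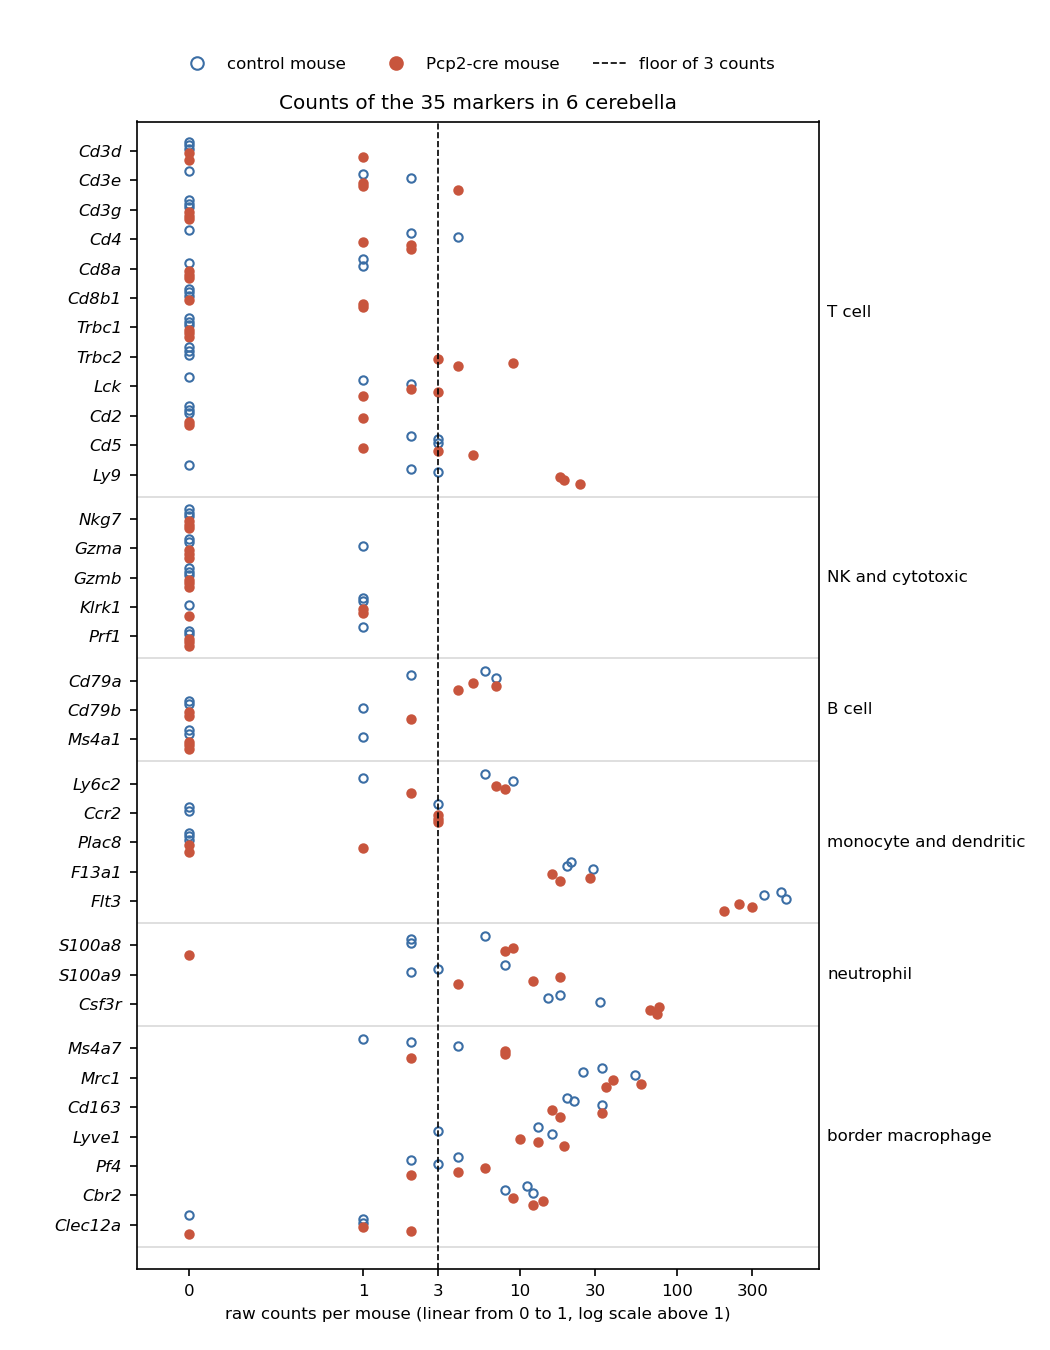
Raw counts of the 35 markers (rows, grouped by cell type) in each of 3 control mice (open circles) and 3 Pcp2-cre mice (filled circles); the axis is linear from 0 to 1 and logarithmic above 1, and the dashed line marks the floor of 3 counts. *Flt3* reaches 490 counts, and 17 markers have no point to the right of the line.

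Only 8 of the 35 markers had enough counts to pass edgeR's filter on low values and enter the main test, beside 16961 genes in all. Genotypes were compared by the quasi-likelihood test of edgeR, p-values were adjusted over those 16961 genes by the Benjamini-Hochberg method, and a call required an adjusted p no higher than 0.05 and a log2 fold change of 0.5 or more in either direction. The calls were 3 of the 8 in either direction, beside 3.17% of all genes tested. *Csf3r* and *Ly9* were called higher in Pcp2-cre mice, where 1.37% of all genes tested were called higher. *Flt3* was called lower, where 1.79% of all genes tested were called lower. *F13a1*, *Mrc1*, *Cd163*, *Lyve1* and *Cbr2* were tested and not called. Because the filter keeps a low gene when 1 genotype is high, the 8 genes do not stand for the 35. The median log2 fold change of all genes tested was 0.00. In bulk tissue, fewer cells of a type and less RNA per cell cannot be told apart, and this holds for every value below.

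A second fit without the filter covered all 30470 genes with a count in any mouse, 31 of the markers among them. It called *Trbc2* and *S100a9* higher beside *Csf3r* and *Ly9*, where 0.955% of genes were called higher, and *Flt3* lower, where 1.29% were called lower. This fit gave smaller errors than the main fit for genes that varied widely between mice. For the choroid plexus gene *Ttr* the standard error was 0.0585 without the filter and 0.932 with it. For the hemoglobin gene *Hbb-bt* the edgeR adjusted p was 0.00487 and 0.374. Its p-values, those of *Trbc2*, *S100a9* and *Cd22* included, may thus understate variation between mice. The genotypes were fully separate, with the Pcp2-cre mice above, for *Csf3r*, *Ly9* and *Trbc2*, 3 of the 31 markers, and the same was true of 10.1% of the 30470 genes. They were separate in the other direction for *Flt3*, 1 of the 31, beside 6.01% of genes. Those shares of the 31 markers are near or below the background. Among the 8 markers that passed the filter, 2 were separate upward and 1 downward, beside 14.7% and 8.89% of the 16961 genes.

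The T cell markers were nearly absent apart from *Ly9* and *Trbc2*. *Cd3d*, *Cd3e* and *Cd3g* encode the CD3 chains that every mature T cell carries with its receptor. For *Cd3e*, control mice 1, 2 and 3 had 0, 1 and 2 counts, and Pcp2-cre mice 1, 2 and 3 had 1, 1 and 4. *Cd3d* had a single count, in Pcp2-cre mouse 2. Only Pcp2-cre mouse 3 thus passed the floor for any CD3 chain, by 1 count.

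The coreceptors *Cd4* and *Cd8a*, which divide helper from cytotoxic T cells, were as low. *Cd4* had 0, 2 and 4 counts in controls and 1, 2 and 2 counts in Pcp2-cre mice. *Cd8a* had 1, 0 and 1 counts in controls and 0 in every Pcp2-cre mouse, and its partner chain *Cd8b1* had 0 in every control and 0, 1 and 1 counts in Pcp2-cre mice. For these coreceptors the genotypes overlapped at or near the floor. *Cd2*, an adhesion receptor, had 1 count in all, in Pcp2-cre mouse 1. *Lck*, the kinase that starts signaling from the T cell receptor, had 0, 1 and 2 counts in controls and 2, 3 and 1 counts in Pcp2-cre mice, and *Cd5*, an inhibitory receptor, had 2, 3 and 3 against 1, 3 and 5 counts. Both overlapped between genotypes.

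*Trbc2*, 1 of the 2 constant segments of the T cell receptor beta chain (chromosome 6, 41523664 to 41525286, forward strand, GRCm39), had 0 counts in all 3 controls and 3, 9 and 4 counts in Pcp2-cre mice. Its mean in Pcp2-cre mice was 0.680 ± 0.335 CPM (SD, n = 3), at least 1.85-fold higher than the controls when each control library is set to the floor. That bound leaves out the counting error of the Pcp2-cre counts, and Pcp2-cre mouse 1, at 3 counts, was not above the floor itself. The fit without the filter called it (edgeR adjusted p = 4.00e-04). Without Pcp2-cre mouse 2, which holds 9 of its 16 counts, the edgeR adjusted p was 0.0602. With control mice 1 and 2 left out the log2 fold change of *Trbc2* was 5.55, beside 5.49 in all mice. Neither has a finite standard error. The two-sided exact permutation p of its CPM was 0.1, the smallest that 3 against 3 mice can give. *Trbc1*, the neighboring segment (41515152 to 41516815), is nearly identical in sequence. It had 0 counts in every mouse, while the deposited FPKM table lists it at 0.126 and 0.139 FPKM in Pcp2-cre mice 1 and 2 and at 0 in the other 4. Reads shared by the pair may have been dropped or assigned to either, which the sources used here do not state. *Trac*, the constant segment of the alpha chain, which was not among the 35, had 10, 8 and 16 counts in controls and 13, 17 and 10 counts in Pcp2-cre mice, with overlap.

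*Ly9* (CD229) encodes a receptor of the SLAM family, best known from T and B lymphocytes. It lies on chromosome 1 from 171416173 to 171434978 on the reverse strand, and no other annotated gene shares its exons. Control mice 1, 2 and 3 had 0, 2 and 3 counts of it, and Pcp2-cre mice 1, 2 and 3 had 18, 19 and 24. No control rose above the floor, and the Pcp2-cre mice were well above it. The means were 0.196 ± 0.170 CPM (SD, n = 3) in controls and 2.72 ± 0.736 CPM (SD, n = 3) in Pcp2-cre mice. The log2 fold change was 3.62 (standard error 0.511, 95% interval 2.56 to 4.69, edgeR adjusted p = 2.94e-05). From the 5 control and 61 Pcp2-cre counts alone, the ratio of shares was 13.4 with a 95% counting interval of 5.44 to 42.8. With control mice 1 and 2 left out the log2 fold change was 3.10. The call held in the male mice alone (log2 fold change 3.92, edgeR adjusted p = 1.10e-04).

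The 12 T cell markers together summed to 1.05 ± 0.599 CPM (SD, n = 3) in controls and 4.74 ± 1.27 CPM (SD, n = 3) in Pcp2-cre mice, without overlap. *Ly9* and *Trbc2* made up most of that difference. The other 10 summed to 0.858 ± 0.431 CPM in controls and 1.34 ± 0.571 CPM in Pcp2-cre mice, and here the genotypes overlapped. A further list of 13 T cell genes was read beside them. Of its 4 tested members, among them *Cd247*, *Lat* and *Tcf7*, edgeR called 0, with 0 at an unadjusted p under 0.05 and 0 called by DESeq2. The Pcp2-cre mice all lay above the controls for *Lat* (2.81 ± 0.586 and 3.77 ± 0.134 CPM) and *Tcf7* (2.57 ± 0.161 and 3.12 ± 0.260 CPM). The same was true of 14.7% of all genes that passed the filter. *Cd28*, the costimulatory receptor, did not pass the filter. It had 18, 7 and 12 counts in controls and 5, 6 and 4 counts in Pcp2-cre mice, without overlap, and the fit without the filter gave a log2 fold change of -1.19 (standard error 0.424, edgeR adjusted p = 0.0757).

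The 5 NK and cytotoxic markers gave 4 counts in all controls and 2 in all Pcp2-cre mice, and none was above the floor in any library. *Gzma*, a granzyme of cytotoxic granules, had 1 count, in control mouse 3. *Prf1*, the pore-forming perforin, had 1 count, in control mouse 1. *Klrk1*, the activating receptor NKG2D, had 1, 1 and 0 counts in both genotypes. At this depth a difference in these 5 markers was not detectable. Of 7 further genes of these cells, only *Ctsw*, a cathepsin of cytotoxic lymphocytes, was tested. It had 24, 18 and 27 counts in controls and 26, 23 and 12 counts in Pcp2-cre mice, a log2 fold change of -0.07 (95% interval -0.61 to 0.47, edgeR adjusted p = 0.930).

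Of the B cell markers, *Cd79a*, a signaling chain of the B cell receptor, was the one that passed the floor. It had 6, 2 and 7 counts in controls and 5, 7 and 4 counts in Pcp2-cre mice, a ratio of 1.17 with a counting interval of 0.543 to 2.55. *Cd79b*, its partner chain, had 0, 0 and 1 counts in controls and 0, 0 and 2 counts in Pcp2-cre mice, and *Ms4a1* (CD20) had 1 count, in control mouse 3. The genotypes overlapped for all 3 genes. Among 8 further B cell genes, *Cd22*, an inhibitory lectin receptor of B cells, had 0, 0 and 4 counts in controls and 10, 9 and 8 counts in Pcp2-cre mice. It did not pass the filter, and the fit without it gave a log2 fold change of 2.75 (standard error 0.644, edgeR adjusted p = 3.55e-04). *Fcmr* had 0 counts everywhere. The 8 genes summed to 1.96 ± 0.447 CPM in controls and 3.89 ± 0.553 CPM in Pcp2-cre mice (SD, n = 3), without overlap, and the 7 other than *Cd22* to 1.83 ± 0.460 and 2.71 ± 0.596 CPM, with overlap.

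The markers of recruited monocytes stayed close to the floor in both genotypes. *Ccr2*, the chemokine receptor by which monocytes leave the bone marrow and enter inflamed tissue, had 3, 0 and 0 counts in controls and 3 counts in each Pcp2-cre mouse. No library passed the floor for it. The ratio for *Ccr2* was 3.30 with a counting interval of 0.823 to 18.9, which spans 1 but does not exclude a large rise. *Ly6c2*, a surface antigen of inflammatory monocytes, had 6, 1 and 9 counts in controls and 7, 8 and 2 counts in Pcp2-cre mice, a ratio of 1.17 with a counting interval of 0.555 to 2.47. *Plac8* had 1 count in all, in Pcp2-cre mouse 2. *F13a1*, the coagulation factor subunit made by monocytes and by border macrophages, had 21, 20 and 29 counts in controls and 16, 28 and 18 counts in Pcp2-cre mice. Its log2 fold change was -0.07 with a 95% interval of -0.58 to 0.44 (edgeR adjusted p = 0.934), which spans 0.

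*Flt3* was the most abundant of the 35 markers and the one called lower. It encodes the receptor for FLT3 ligand, which hematopoietic progenitors and dendritic cells need. Counts were 456, 356 and 490 in the controls and 247, 301 and 198 in the Pcp2-cre mice, given in the order of mice 1, 2 and 3. On the CPM scale the means were 52.1 ± 3.90 (SD, n = 3) in controls and 32.4 ± 2.86 (SD, n = 3) in Pcp2-cre mice, without overlap. The log2 fold change was -0.70 (standard error 0.0795, 95% interval -0.87 to -0.54, edgeR adjusted p = 2.19e-06). With control mice 1 and 2 left out it was -0.59. The gene spans 147267551 to 147337483 on the reverse strand of chromosome 5, and 301 bases of its exons overlap *Gm26597* on the opposite strand. Whether counting used strand is not given in the sources used here.

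The other dendritic cell genes were not at a comparable level. *Xcr1*, a receptor of cross-presenting dendritic cells, had 0 counts in every mouse. *Clec9a*, a lectin of the same cells, had 2, 0 and 1 counts in controls and 3, 1 and 2 counts in Pcp2-cre mice. *Ccr7* had 1 count in each genotype. Per length, on the deposited FPKM scale, *Flt3* stood first among the 35 in both genotypes, at 11.4 ± 1.07 FPKM in controls and 7.13 ± 0.779 FPKM in Pcp2-cre mice (SD, n = 3), while *S100a9*, next in controls, had 1.04 ± 1.04 FPKM there. The 4 other monocyte and dendritic markers summed to 3.50 ± 0.361 CPM in controls and 3.84 ± 0.716 CPM in Pcp2-cre mice, with overlap.

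*Csf3r* was the marker called higher with the most counts. It encodes the receptor for G-CSF, the cytokine that drives neutrophil production. The gene is also known from monocytes and microglia. Counts were 18, 15 and 32 in the controls and 77, 67 and 74 in the Pcp2-cre mice, given in the same order. The lowest Pcp2-cre mouse lay far above the highest control. Its means were 2.52 ± 0.542 CPM (SD, n = 3) in controls and 9.66 ± 1.65 CPM (SD, n = 3) in Pcp2-cre mice. The log2 fold change was 1.86 (standard error 0.207, 95% interval 1.43 to 2.30, edgeR adjusted p = 1.66e-06). It was 1.58 with control mice 1 and 2 left out. *Csf3r* lies on the forward strand of chromosome 4 from 125918262 to 125938236, and 235 bases of its exons overlap *Gm32908* on the opposite strand. On the FPKM scale its place among the 35 went from 10 in controls (0.458 ± 0.115) to 2 in Pcp2-cre mice (2.23 ± 0.302; SD, n = 3).

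The promoter sequences of *Csf3r* and *Flt3*, the called markers with an entry in the RefSeq promoter table, are printed to show the sequence that precedes one marker that rose and one that fell. Each holds 250 bases before and 50 after the start of the transcript in build GRCm38.p6, which is not the build of the counts, and is written 5′ to 3′ on the gene's own strand. Capitals mark GAGGAA, the core of the sites bound by the ETS factor PU.1, searched on both strands. *Csf3r* (chr4:126024409-126024708, forward strand) has 1 match, which begins 86 bases before the start.
Csf3r: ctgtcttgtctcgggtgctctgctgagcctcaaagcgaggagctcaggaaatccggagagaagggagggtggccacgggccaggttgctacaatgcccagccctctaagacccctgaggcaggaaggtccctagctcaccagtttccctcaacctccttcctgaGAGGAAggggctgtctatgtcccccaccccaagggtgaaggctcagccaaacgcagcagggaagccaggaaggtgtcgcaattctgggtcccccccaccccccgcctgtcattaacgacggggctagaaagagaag
Flt3: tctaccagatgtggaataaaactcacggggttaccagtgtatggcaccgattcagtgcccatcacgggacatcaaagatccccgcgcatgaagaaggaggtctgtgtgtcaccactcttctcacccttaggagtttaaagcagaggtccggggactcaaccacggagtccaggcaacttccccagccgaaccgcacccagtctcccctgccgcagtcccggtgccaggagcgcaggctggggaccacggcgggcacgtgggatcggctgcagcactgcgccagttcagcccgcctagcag
*Flt3* (chr5:147400440-147400739, reverse strand) has no match in this window. Of the 35 markers 26 had an entry, and 18 of these 26 genes had the motif in at least 1 promoter, 20 of their 31 promoters (64.5%), beside 28.3% of all 32851 promoters in the table. By cell type the genes with a match were 5 of 6 for T cells, 2 of 5 for NK cells, 1 of 1 for B cells, 3 of 5 for monocytes and dendritic cells, 2 of 3 for neutrophils and 5 of 6 for border macrophages. A match is a description of the letters and not a binding site.

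The other neutrophil markers were low and uneven. *S100a8* and *S100a9* encode the paired calcium-binding proteins that fill neutrophil cytoplasm. *S100a9* had 8, 3 and 2 counts in controls and 18, 12 and 4 counts in Pcp2-cre mice, a ratio of 2.87 with a counting interval of 1.48 to 5.94. The fit without the filter called it (log2 fold change 1.45, standard error 0.447, edgeR adjusted p = 0.0216), but Pcp2-cre mouse 3 lay below control mouse 1, and the two-sided exact permutation p was 0.2. That call was lost without control mouse 2 (edgeR adjusted p = 0.0671), without control mouse 3 (edgeR adjusted p = 0.338), without Pcp2-cre mouse 1 (edgeR adjusted p = 0.559) and in the male mice alone (edgeR adjusted p = 0.107). The call held without control mouse 1 (edgeR adjusted p = 0.00252), Pcp2-cre mouse 2 (edgeR adjusted p = 0.0489) or Pcp2-cre mouse 3 (edgeR adjusted p = 0.00262). With control mice 1 and 2 left out the log2 fold change of *S100a9* was 2.80. *S100a8* had 6, 2 and 2 counts in controls and 9, 8 and 0 counts in Pcp2-cre mice, with overlap. Hemoglobin and other red cell transcripts, a measure of blood left in the tissue, summed over 5 genes to 14.1, 62.7 and 17.4 CPM in controls and to 46.0, 28.5 and 5.94 CPM in Pcp2-cre mice. Within the Pcp2-cre mice the order of these sums was that of *S100a9*, highest in mouse 1 and lowest in mouse 3, and within the controls it was not. The part of residual blood in the result was not tested.

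The most specific neutrophil genes were at or near 0, and other granule genes were low in both genotypes. *Ly6g*, a surface antigen of neutrophils, had 0 counts in every mouse, and *Cxcr2*, the receptor by which neutrophils follow chemokines, had 1, in Pcp2-cre mouse 1. The granule proteins *Mpo* and *Elane* had at most 2 counts in any library. *Ngp* had 8, 5 and 1 counts in controls and 3, 5 and 4 counts in Pcp2-cre mice, *Ltf* (lactoferrin) had 6, 5 and 1 against 5, 3 and 0, and *Camp*, *Mmp8* and *Il1r2* each passed the floor in at least 1 library. All 5 of these overlapped between genotypes. The 11 neutrophil genes read beside the 3 markers summed to 5.78 ± 0.885 CPM in controls and 4.37 ± 0.603 CPM in Pcp2-cre mice (SD, n = 3), lower in every Pcp2-cre mouse, while the 3 markers went from 3.47 ± 0.498 to 11.8 ± 1.81 CPM. *Mmp9*, a matrix metalloproteinase that many cell types make, carried most of that lower sum, and the other 10 genes gave 2.29 ± 0.688 and 2.06 ± 1.05 CPM, with overlap. Without *Csf3r* the 2 remaining markers summed to 0.948 ± 0.688 and 2.17 ± 1.49 CPM, with overlap.

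**Figure D2:**
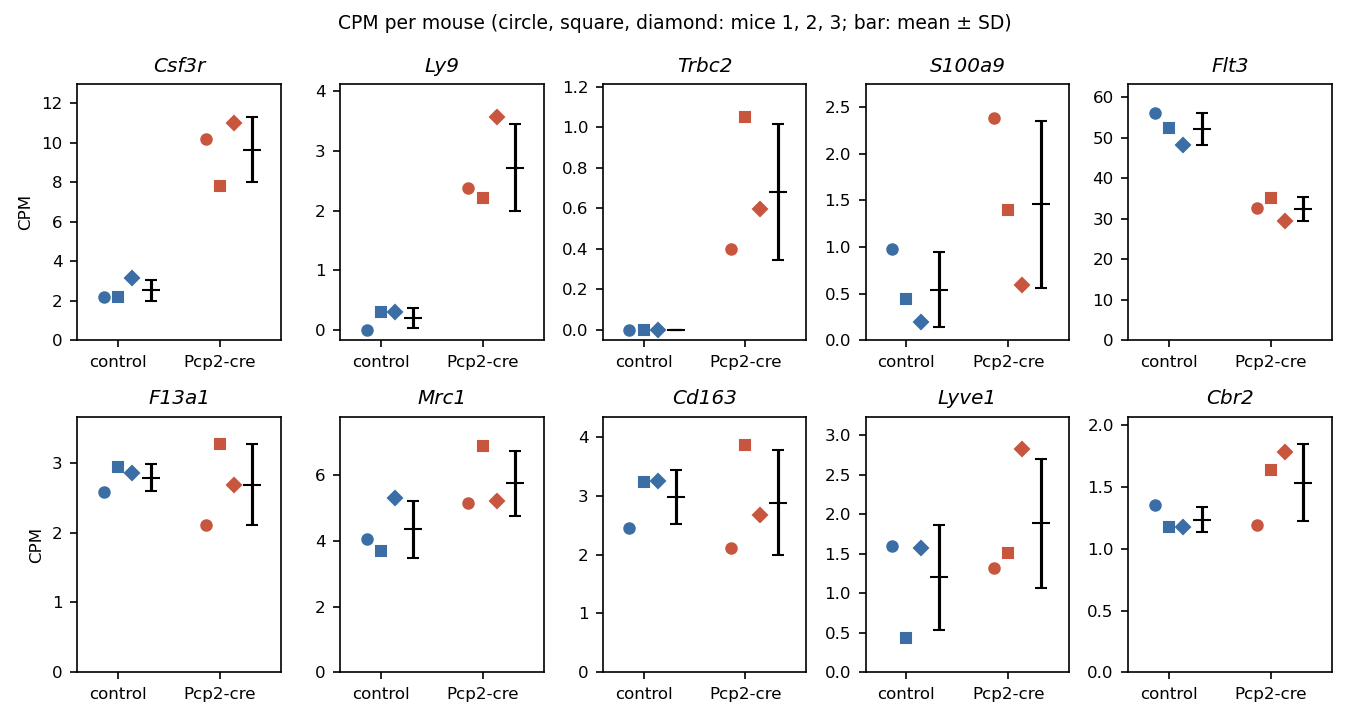
CPM per mouse of 10 markers in control (blue) and Pcp2-cre (red) cerebella, with circle, square and diamond for mice 1, 2 and 3 and the bar for the mean ± SD of 3 mice. The genotypes are separate for *Csf3r*, *Ly9*, *Trbc2* and *Flt3* and overlap for the other 6 genes.

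Border macrophage markers passed the floor in at least 1 mouse for 6 of 7 genes, and none was called. *Mrc1*, the mannose receptor CD206, had 33, 25 and 54 counts in controls and 39, 59 and 35 counts in Pcp2-cre mice. *Cd163*, the scavenger receptor for hemoglobin and haptoglobin, had 20, 22 and 33 against 16, 33 and 18 counts. *Lyve1*, a hyaluronan receptor of perivascular macrophages and lymphatic vessels, had 13, 3 and 16 against 10, 13 and 19 counts. In each case the genotypes overlapped.

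Their log2 fold changes had intervals that span 0. That of *Mrc1* was 0.36 (95% interval -0.06 to 0.78, edgeR adjusted p = 0.378) and that of *Cd163* -0.06 (-0.59 to 0.48, edgeR adjusted p = 0.947). For *Lyve1* it was 0.51 (-0.32 to 1.33, edgeR adjusted p = 0.569), and for *Cbr2*, a carbonyl reductase used as a marker of these cells, 0.28 (-0.41 to 0.97, edgeR adjusted p = 0.753). Of these 4 tested genes edgeR called 0, with 0 at an unadjusted p under 0.05, and DESeq2 also called 0. The intervals exclude a 4-fold rise of each, and only that of *Cd163* excludes a log2 change of 0.5 upward. With control mice 1 and 2 left out, the log2 fold changes of *Mrc1*, *Cd163*, *Lyve1* and *Cbr2* were 0.11, -0.17, 0.20 and 0.35.

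The remaining border macrophage markers did not enter the main test. *Ms4a7*, a tetraspan protein of these macrophages, had 1, 2 and 4 counts in controls and 8, 8 and 2 counts in Pcp2-cre mice. Its ratio was 2.83 (counting interval 1.13 to 8.01), the genotypes overlapped, and the fit without the filter gave an edgeR adjusted p of 0.247. *Pf4*, a chemokine shared with platelets, had 4, 2 and 3 against 6, 4 and 2 counts. *Clec12a*, an inhibitory lectin, stayed at or under 2 counts.

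The 7 border macrophage markers summed to 10.5 ± 1.46 CPM in controls and 13.4 ± 1.90 CPM in Pcp2-cre mice (SD, n = 3), with overlap. The 9 further genes of these cells summed to 37.9 ± 1.30 and 48.1 ± 5.37 CPM, higher in every Pcp2-cre mouse, and without *Stab1* to 21.7 ± 1.63 and 24.5 ± 3.00 CPM, with overlap. *Siglec1* (sialoadhesin), which was not in the main test, had 2, 4 and 6 counts in controls and 6, 10 and 10 counts in Pcp2-cre mice, without overlap in CPM, and the fit without the filter gave an edgeR adjusted p of 0.176. Of the 5 that were tested, *Stab1* was called higher. It encodes the scavenger receptor stabilin-1, and it rose from 16.2 ± 0.884 to 23.7 ± 2.43 CPM (SD, n = 3), a log2 fold change of 0.51 (95% interval 0.31 to 0.72, edgeR adjusted p = 0.00152) just past the threshold. Leaving out control mouse 2, Pcp2-cre mouse 2 or Pcp2-cre mouse 3 ended that call, with 0 of the lineage genes outside the 35 then called higher. Over all 59 lineage genes outside the 35, 13 were tested, 1 was called higher and 0 lower by edgeR. Beside these stand 1.37% of all genes tested called higher and 1.79% called lower. At an unadjusted p under 0.05, 2 were higher, *Stab1* and *Ms4a6c*, and 1, *Mmp9*, was lower. DESeq2 called 1 higher and 0 lower.

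**Figure D3:**
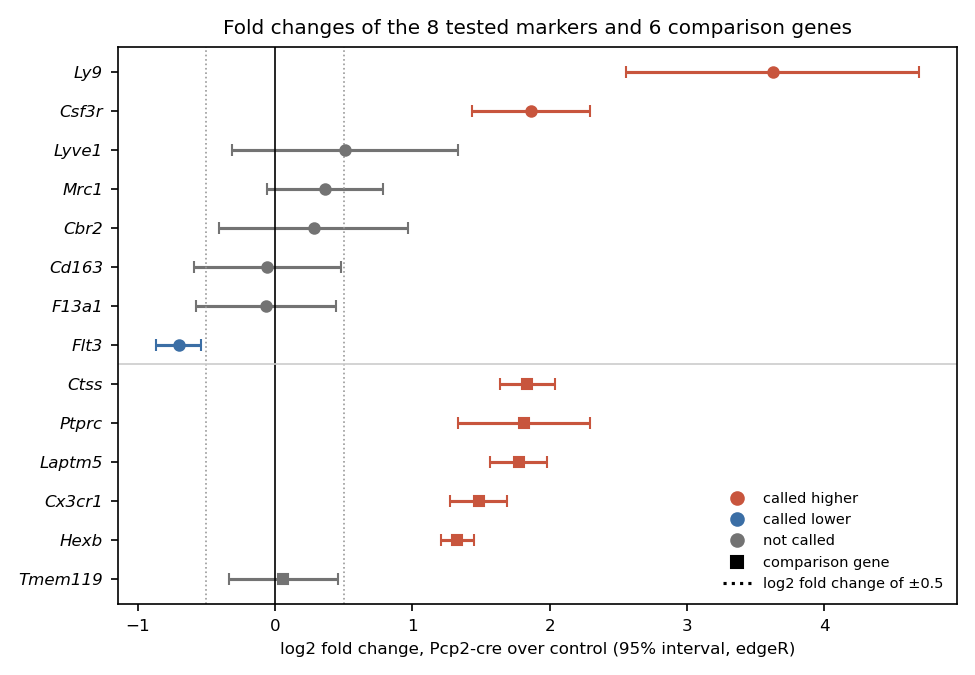
Log2 fold change of Pcp2-cre over control with its 95% interval from edgeR for the 8 tested markers (circles) and 6 comparison genes (squares), with dotted lines at the threshold of 0.5 in size. *Ly9*, *Csf3r* and *Flt3* lie beyond the lines with intervals that exclude 0, and the intervals of the other 5 markers cross 0.

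Many genes shared by all leukocytes and by microglia were also higher in Pcp2-cre mice. *Ptprc* (CD45), which every leukocyte and, at a lower level, microglia carry, had 19, 15 and 18 counts in controls and 66, 49 and 55 counts in Pcp2-cre mice. Its log2 fold change was 1.81 (edgeR adjusted p = 1.07e-05), beside 1.86 for *Csf3r*. For the lists that follow, 1.37% of all genes tested were called higher. Of 6 pan-leukocyte genes 4 were called higher, and the list summed to 50.8 to 63.2 CPM in controls and 100.4 to 106.3 CPM in Pcp2-cre mice. Of 10 homeostatic microglia genes 7 were called higher, and the list summed to 84.0 to 85.9 CPM in controls and 207.1 to 222.9 CPM in Pcp2-cre mice. *Tmem119*, a defining microglia gene, was not called (log2 fold change 0.06). Of 12 activated microglia genes 11 were called higher. *Csf3r* and *Ly9* were higher in the Pcp2-cre mice, as these lists were. That holds for any gene called higher by genotype and does not link them. The part of microglia in the values of *Csf3r* and *Ly9* was not tested.

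Lists of the cells that line the borders of the brain were also read. Of 8 meningeal fibroblast genes edgeR and DESeq2 called 0, with 1 higher at an unadjusted p under 0.05, and the sum was 144 ± 3.19 CPM in controls and 162 ± 24.0 CPM in Pcp2-cre mice. Of 7 endothelial genes both called 0, with 2 higher at an unadjusted p under 0.05. Of these, *Prox1* (log2 fold change 0.21, edgeR adjusted p = 0.0443) fell short of the fold change threshold only. The endothelial sum was 228 ± 11.8 and 254 ± 3.60 CPM, without overlap.

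Within each library the border macrophage markers can be set against the microglia. Divided by the summed counts of the 10 homeostatic microglia genes, theirs gave ratios of 0.120, 0.108 and 0.142 in the 3 controls and of 0.0559, 0.0749 and 0.0586 in the 3 Pcp2-cre mice. The ratio was thus lower in every Pcp2-cre mouse, with a numerator that overlapped between genotypes and a denominator that did not. For the 20 T, NK and B cell markers the same ratio was 0.0161, 0.0205 and 0.0288 in controls and 0.0207, 0.0265 and 0.0313 in Pcp2-cre mice, with overlap.

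**Figure D4:**
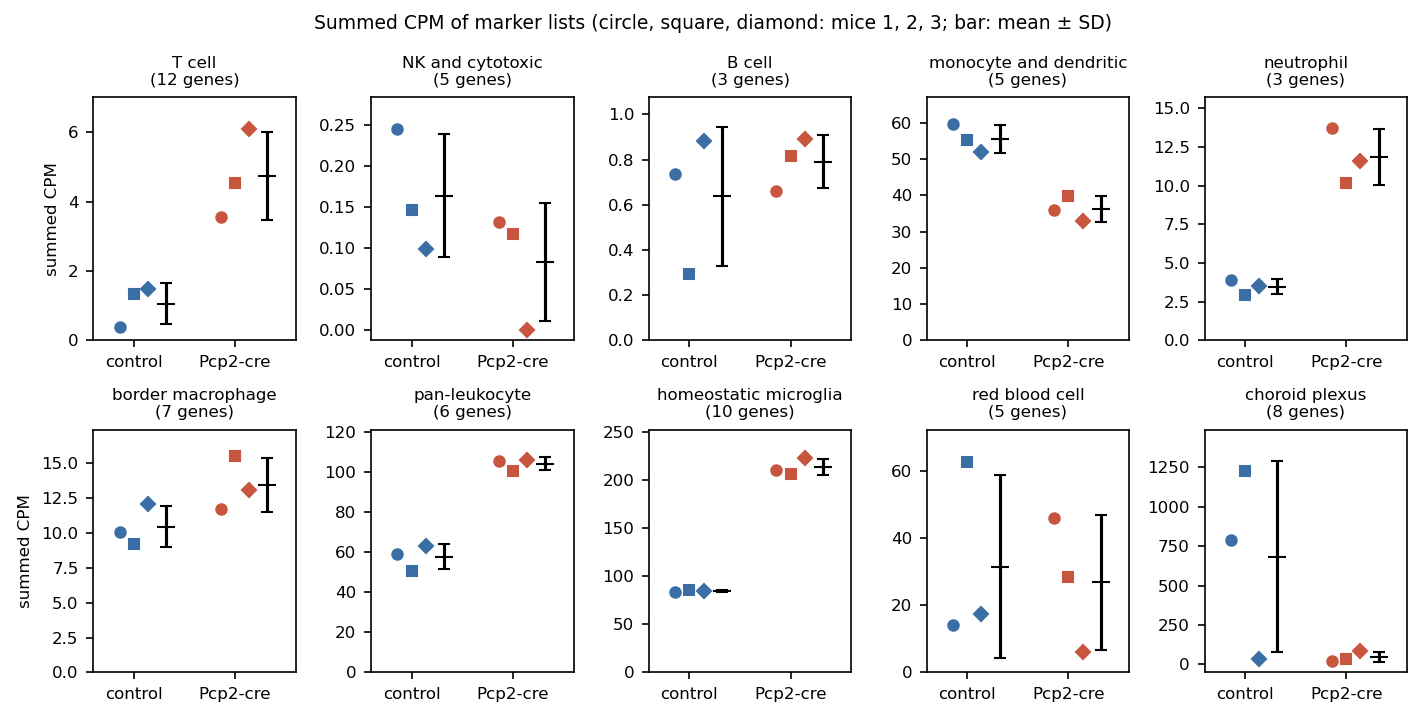
Summed CPM per mouse of the 6 marker groups and of 4 comparison lists, with circle, square and diamond for mice 1, 2 and 3 and the bar for the mean ± SD of 3 mice per genotype. The NK, B cell and border macrophage sums overlap. The T cell and neutrophil sums are higher and the monocyte and dendritic sum lower in every Pcp2-cre mouse. These differences rest mostly on *Ly9*, *Csf3r* and *Flt3*, in that order, and not on the lists as a whole. Control mice 1 and 2 stand apart in the choroid plexus list.

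Male and female mice were compared last. In a fit with an interaction of genotype and sex, no tested marker had an edgeR adjusted p under 0.952 for the difference between male and female mice, with 1 female per genotype. That p does not show that the sexes responded alike.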

How the data were processed

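Poly A-enriched RNA from 6 cerebella (3 mice per genotype) was sequenced as paired reads. Per the methods of the study, the authors used trimmed reads, STAR with the GRCm39 genome, and featureCounts and StringTie on Gencode genes. The submitters' processing notes also name STAR-Fusion, edgeR and DESeq. Tool versions, the release of Gencode, strand settings and the handling of multi-mapping reads are not given in the sources used here. Deposited were 2 tables, raw counts of 53746 genes and FPKM of 55005 genes, both made by the authors. Replicates were not pooled, and nothing states that the mice came from separate litters.

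Counts were analyzed in R 4.3.3 with edgeR 4.0.16 (filterByExpr with a minimum count of 10, TMM, quasi-likelihood test). CPM here are counts over the library total. FPKM was used for levels between genes and, as log2(FPKM + 1) or log2(FPKM + 0.1) with limma 3.58.1, as an alternative, and DESeq2 1.42.0 was another. Exact permutation tests were two-sided, and counting intervals were exact binomial ones at 95%. Coordinates came from Gencode M39. Libraries of a genotype were not duplicates (chi-square per gene 1.38 to 3.62). On simulated counts of this comparison over 16773 genes, 91 of 100 genes with a log2 change of 1 were called. So were 100 of 100 with a change of 2 and 6 of 16573 unchanged genes. The changed genes were drawn only from genes above a minimum mean count, which most markers do not reach. *Ly9*, *Lyve1* and *Cbr2* are among those below it. Recovery was not simulated at such low counts, so these shares give no power for them.

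The members and lists were chosen with earlier results of these data known. All 35 markers are named, and of the other lists the genes that carried a comparison or define a cell type, some of them chosen after their values were seen.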

Additional observations from a re-analysis of the deposited data

How the results depend on the processing

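The calls of *Csf3r*, *Ly9* and *Flt3* kept their direction and their side of the threshold under every alternative in which they were tested at a threshold of 0.5, with log2 fold changes of 1.15 to 2.08, 0.80 to 4.13 and -0.77 to -0.59 and a highest adjusted p of 0.0431. *Ly9* leaves the test when at least 10 counts are required in every mouse, which makes 1 marker called higher in place of 2, and without the filter 4 were. *Flt3* is not called when a log2 fold change of 1 is required, so that 0 markers were lower there, with the filter or without it. Leaving out 1 mouse at a time gave 2 markers higher and 1 lower each time with the filter, and 3 to 4 higher and 1 lower without it. The lineage genes outside the 35 called higher were 1, but 2 without the filter and 0 with log2(FPKM + 1), log2(FPKM + 0.1) or the threshold of 1, and 0 to 2 with 1 mouse left out, where 0 were lower. At a floor of 10 counts 6 rather than 10 markers were above it in every Pcp2-cre mouse.

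The difference in summed CPM (Pcp2-cre minus control) went, without its most abundant member, from 3.68 to 1.16 for T cells (*Ly9*), from 8.36 to 1.22 for neutrophils (*Csf3r*) and from -19.4 to 0.34 for monocytes and dendritic cells (*Flt3*). With 1 mouse left out it was 3.00 to 4.26 for T cells, 7.40 to 9.20 for neutrophils, -21.3 to -17.4 for monocytes and dendritic cells, -0.113 to -0.0391 for NK cells, -0.0207 to 0.275 for B cells and 1.95 to 3.83 for border macrophages.

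The mouse numbers do not pair the mice. The deviations of mice with the same number correlated at 0.04, 0.06 and 0.17, and not every mouse correlated best with its own number. With the replicate block, 2 markers were higher and 1 lower in the fit with the filter, as without the block, and without the filter 3 were higher, with *S100a9* no longer called (adjusted p = 0.0544). Fits with a choroid plexus score, without control mice 1 and 2 together, and on the male mice alone were chosen after seeing the data. With the filter, the fits with the score and on the male mice alone gave 2 higher and 1 lower. Without the filter, *S100a9* lost its call with the score (adjusted p = 0.0739) and in the male mice alone, as it did with sex as a covariate (adjusted p = 0.0525), and its adjusted p over all its alternatives lay between 0.00252 and 0.559. Fewer than 4 counts per library limit what can be said of 17 of the 35 markers.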
